A study of Drosophila melanogaster with 18 samples.

Results

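Oxidative phosphorylation is the step of respiration in which mitochondria make ATP. Complexes I and II pass electrons from NADH and succinate to ubiquinone, complex III hands them to cytochrome c, complex IV passes them to oxygen, and complex V, the ATP synthase, uses the proton gradient built on the way. Most subunits are encoded in the nucleus and a few in the mitochondrial genome, so the complexes need products of both. The genes described here were chosen by name: symbols that begin with ND-, COX and a digit from 4 to 8, UQCR- or ATPsyn, the genes SdhA to SdhD, and Cyt-c1, RFeSP and ox. They were 81 of the 12301 genes in the deposited table, and all 81 passed the filter on low values. Of them 65 were treated as somatic subunits (34 of complex I, 4 of complex II, 9 of complex III, 7 of complex IV and 11 of complex V). The other 16 are duplicate copies with the suffix L, many of them known as testis genes. The name rule leaves out some subunits, such as blw, the alpha subunit of ATP synthase, which are given further on.

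The RNA was that of entire larvae (3rd instar, Drosophila melanogaster), in an experiment that captured RNA bearing N4-acetylcytidine (ac4C) with an antibody and sequenced it beside the uncaptured input. The control carried the driver only (Dats-GAL4/+), the next genotype added UAS-NAT10-RNAi, against the enzyme that makes ac4C, and the last carried that construct together with 1 for Xrp1, whose product is a transcription factor of the stress response. The protocol names the driver as da-GAL4 with tub-GAL80ts, so it acts throughout the body once larvae are at 30 °C; all 3 genotypes carry it, and the protocol moves embryos from 18 °C to that temperature. The harvest came at 72 h for control and at 120 h for NAT10 RNAi, whose development was delayed, so genotype and harvest time cannot be told apart; the labels state no time for the third genotype. Each genotype had 3 biological replicates of 40 larvae each, with 15518179 to 24272099 reads in genes per input library.

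The targeted genes checked the labels only in part. The transcript of NAT10, l(1)G0020, stood at 4.97 to 5.46 FPKM (fragments scaled by exon length and by library size) in control, 5.22 to 5.93 in the libraries labelled NAT10 RNAi and 6.02 to 6.18 in those with both constructs, and was not lower in either. Xrp1 stood at 208 to 214 FPKM in control, 385 to 386 in NAT10 RNAi, and with both constructs 40.4 to 43.9. Replicate 1 with both constructs stands apart from the other two, with a scale factor of 0.922 against 0.982 and 0.977, so the counts over all somatic subunits are also given without it, and calls of the genes described that change without it are named. Salivary glue transcripts, which glands make late in larval life, summed to between 29170 and 33375 FPKM in control, 4000 to 4137 in NAT10 RNAi, and with both constructs 3753 to 3905. Of these 8 glue genes 6 were lower and 2, ng1 and ng2, higher in NAT10 RNAi than in control, and likewise with both constructs. The median gene was higher by 0.17 on the log2 scale in NAT10 RNAi than in control, by 0.00 with both constructs than in control, and lower by 0.16 with both constructs than in NAT10 RNAi. Counts in NAT10 RNAi against control are therefore given as deposited and after rescaling each library by its median ratio to the others.

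In control larvae the somatic subunits ranged from 0.902 FPKM for SdhC, a membrane anchor of complex II, to 526 for COX6B, a subunit of complex IV. Their median level was 13.6 FPKM, against 2.34 for the 16 duplicate copies. Complex IV had the highest median, 98.1 FPKM over 7 genes, followed by complex V with 25.1. The medians of complexes I, III and II were 11.1, 10.7 and 9.95 FPKM. ATPsynC, which forms the ring that turns as protons pass, stood at 336 FPKM, while ATPsyndelta stood at 4.67. FPKM is divided by the length of all exons of a gene, 3817 bases for ATPsyndelta, whose annotation includes a long 3' extension. Transcript levels of genes grouped under one complex thus spanned wide ranges, from 1.51 FPKM (ND-B8) to 114 (ND-MLRQ) among those placed in complex I by name. The mammalian counterpart of ND-MLRQ is now assigned to complex IV.

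**Figure D1:**
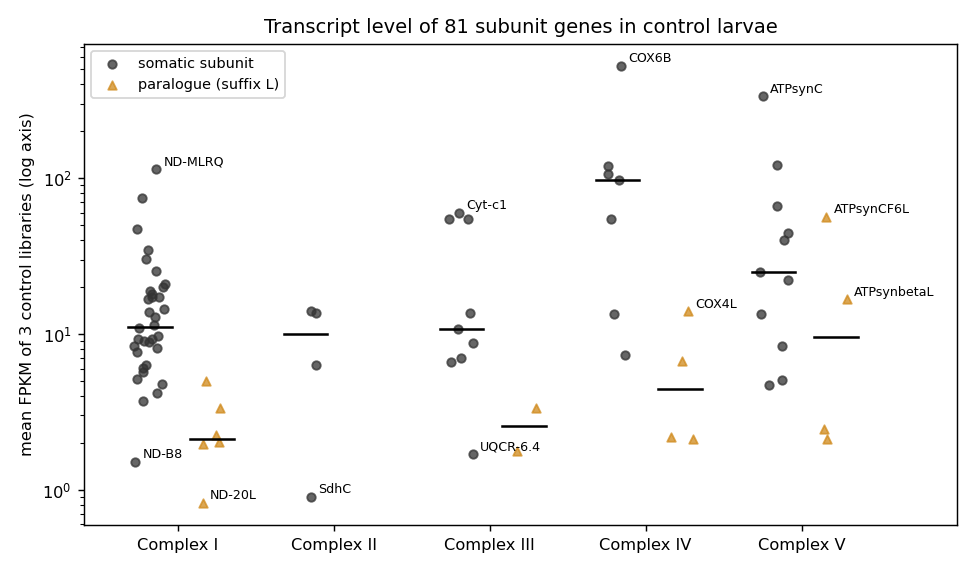
Mean FPKM of 3 control input libraries (log axis) for each subunit gene, by complex; circles are somatic subunits, triangles duplicate copies, and bars medians. COX6B at 526 and ATPsynC at 336 lie highest, and the duplicate copies have a median of 2.34 against 13.6 for the somatic genes.

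In larvae labelled NAT10 RNAi most subunit transcripts were higher than in control. Of the 65 somatic genes 47 rose, 2 fell and 16 were not called (limma on log2(FPKM + 1), Benjamini-Hochberg adjusted p under 0.05), where 47.3% of all tested genes were higher and 18.9% lower. That is 72.3% of the somatic genes higher and 3.08% lower. Without replicate 1 of the genotype with both constructs, which takes part in the fit, 54 rose and 2 fell. After rescaling, 34 rose and 7 fell, against 31.9% higher and 31.5% lower over all genes. The median log2 change was 0.41, and 0.23 after rescaling, and the median ratio of mean FPKM was 1.36, with a range from 0.784 to 2.24. In 53 somatic genes every NAT10 RNAi library lay above every control library, and in 2 below, with 51.6% and 21.7% of all tested genes doing so. The summed level of the 65 genes was 2462 to 2509 FPKM in control and 3303 to 3350 in NAT10 RNAi. In bulk RNA, fewer or more cells of a type and less or more RNA per cell cannot be told apart.

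With both constructs the genes lay mostly between. Of the 65, 25 were higher than in control and 2 lower, where 21.5% and 19.2% of all tested genes were, and 29 and 3 after rescaling, where 21.2% and 20.5% were. The median change was 0.13 on the log2 scale, and 0.22 with 33 higher without replicate 1 of this genotype; without its replicate 2 the median was 0.083. Every library with both constructs lay above every control library in 29 genes and below in 5, as did 25.3% and 24.4% of all tested genes. Against NAT10 RNAi, 37 were lower and 2 higher, where 46.1% and 15.2% of all tested genes were, and 22 and 7 after rescaling, where 27.6% and 28.2% were. Without replicate 1, 33 were lower and 3 higher, with a median of -0.21. The median of that comparison was -0.28, or -0.11 after rescaling, where the median of all genes as deposited was -0.16. The mean rose from control over both constructs to NAT10 RNAi in 40 of the 65 genes, which is an order of means and not a test. The comparisons share libraries, so their calls are not independent. Of the 65, 20 were called higher in NAT10 RNAi than in control, lower with both constructs than in NAT10 RNAi, and not called with both constructs against control. A further 12 had the same calls in the first 2 of these comparisons and were also called higher with both constructs than in control. Neither these counts nor that of the order of means were made over all tested genes, so they have no background share.

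**Figure D2:**
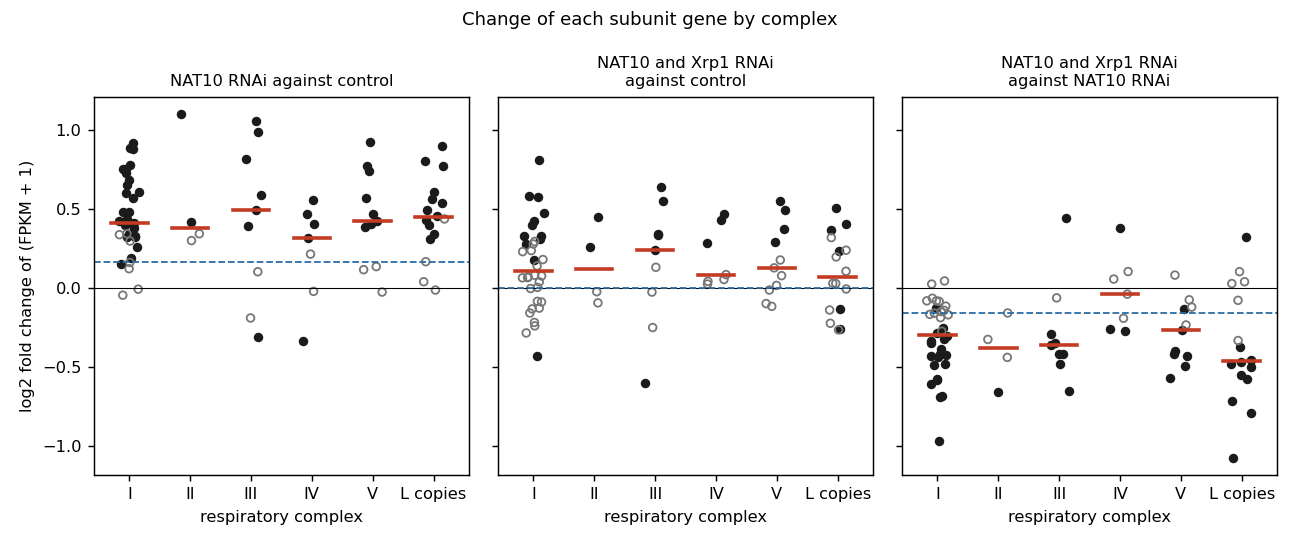
Log2 fold change of (FPKM + 1) for each gene by complex (L copies are the duplicates) in 3 comparisons; filled points passed the test, red bars are medians and the dashed line the median of all tested genes. In NAT10 RNAi against control the complex medians lie between 0.32 and 0.50, above the line at 0.17.

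In complex I, 27 of 34 genes rose in NAT10 RNAi and none fell (16 and 2 after rescaling), and the sum was 616 to 642 FPKM in control and 820 to 837 in NAT10 RNAi. The 7 core subunits, which carry the electron path from NADH to ubiquinone, had 6 higher and a median of 0.49, and the 27 accessory subunits 21 higher and a median of 0.40. With both constructs the sum of complex I was 600 to 700 FPKM, which overlaps control. Of its 34 genes 11 were higher and 1 lower with both constructs than in control, where 21.5% and 19.2% of all tested genes were. ND-75 (FBgn0017566, X:8248651-8251687, minus strand), an iron-sulfur subunit, stood at 18.5, 18.4 and 17.6 FPKM in control, 34.5, 35.4 and 35.6 in NAT10 RNAi and 27.2, 28.7 and 27.1 with both constructs. The 3 groups do not overlap, and it was higher by 0.92 ± 0.04 (SE) in NAT10 RNAi (limma adjusted p = 7.93e-09) and by 0.58 ± 0.04 with both constructs (adjusted p = 1.15e-06). Among accessory subunits ND-AGGG stood at 13.5 to 15.1 FPKM in control, at 27.8 ± 2.58 (SD, n = 3, as after ± for every FPKM here; after a log2 change it is the SE) in NAT10 RNAi and at 26.3 ± 2.73 with both constructs (log2 changes against control of 0.89 and 0.81, limma adjusted p = 5.29e-06 and 3.93e-05). ND-PDSW (FBgn0021967, 2L:3466157-3467334, plus strand) had its highest libraries in NAT10 RNAi. It stood at 12.0, 14.4 and 11.9 FPKM in control, 20.8, 25.1 and 20.7 in NAT10 RNAi and 7.76, 12.4 and 13.0 with both constructs, the last overlapping control. Between the RNAi genotypes it was lower by 0.97 on the log2 scale (limma adjusted p = 0.000423).

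ND-MWFE was likewise at 47.2 ± 3.59 FPKM in control, 72.2 ± 3.89 in NAT10 RNAi and 44.5 ± 0.989 with both constructs, lower by 0.69 than in NAT10 RNAi (limma adjusted p = 2.82e-06). ND-MLRQ, whose mammalian counterpart NDUFA4 is now assigned to complex IV, stood at 117, 114 and 111 FPKM in control, 111, 112 and 117 in NAT10 RNAi and 71.2, 97.1 and 87.0 with both constructs. It was lower with both constructs than in control, with a log2 change of -0.43 ± 0.09 (limma adjusted p = 0.00331), and replicate 1 is its lowest library. Against control in NAT10 RNAi it did not pass the test as deposited and was lower after rescaling, by -0.20 on the log2 scale. ND-B8, the lowest complex I gene, was called higher in NAT10 RNAi (1.51 ± 0.449 to 2.36 ± 0.195 FPKM, limma adjusted p = 0.0249), a call lost without either of control replicates 2 and 3, without NAT10 RNAi replicate 1 or 3, after rescaling, and by edgeR and DESeq2.

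In complex II the 2 catalytic subunits rose in NAT10 RNAi, and the 2 membrane anchors, with lower levels, did not pass the test with all libraries. SdhA, the flavoprotein that oxidises succinate, had the largest log2 change of the 65 somatic genes in NAT10 RNAi against control. The gene (FBgn0261439) lies at 2R:19391863-19395971 on the minus strand. It stood at 13.4, 13.9 and 13.5 FPKM in control, 29.9, 31.0 and 30.4 in NAT10 RNAi and 16.8, 20.3 and 20.0 with both constructs, with no overlap between groups. It was 2.24-fold higher in NAT10 RNAi than in control (log2 change 1.11 ± 0.06, limma adjusted p = 1.11e-07), and lower by 0.65 with both constructs than in NAT10 RNAi (adjusted p = 8.47e-06). SdhB, the iron-sulfur subunit, went from 14.1 ± 0.467 to 19.2 ± 0.0302 FPKM and stood at 15.1, 19.3 and 17.3 with both constructs (log2 change 0.42 in NAT10 RNAi, limma adjusted p = 0.000437). Its call with both constructs, at 0.26, is lost without control replicate 3. The anchors SdhC (0.902, 1.41 and 0.763 FPKM) and SdhD (6.28, 7.95 and 6.26) had changes of 0.35 and 0.30 in NAT10 RNAi (limma adjusted p = 0.169 and 0.0782). SdhD passed without replicate 1 or replicate 2 with both constructs and in a fit of the 2 compared genotypes, and SdhC without control replicate 3 or NAT10 RNAi replicate 1. SdhA shares 38 bases of exon with CG11257, SdhB 129 with CG15237 and SdhD 124 with PTPMT1, all on the opposite strand; the strand setting of the counting is not given in the sources used here.

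In complex III 6 of 9 genes rose and 1 fell in NAT10 RNAi (5 and 2 after rescaling). Cyt-c1 (FBgn0035600, 3L:5360211-5362422, plus strand), the heme subunit that passes electrons to cytochrome c, stood at 62.3, 58.7 and 59.5 FPKM in control, 128, 123 and 129 in NAT10 RNAi and 101, 93.0 and 90.2 with both constructs, again with no overlap between the groups. Its log2 changes against control were 1.06 ± 0.05 and 0.64 ± 0.05 (limma adjusted p = 1.22e-08 and 2.5e-06). The core proteins UQCR-C1 (10.7 ± 1.06 to 22.2 ± 0.52 FPKM) and UQCR-C2 (7.02 ± 0.72 to 13.1 ± 1.12) rose by 0.99 and 0.82 (limma adjusted p = 1.22e-06 and 3.34e-05). With both constructs they stood at 13.8 ± 1.37 and 9.14 ± 1.26 FPKM; the call of UQCR-C2 against control there, at 0.34, is lost without control replicate 2 or 3 or replicate 2 of that genotype. The 5 small subunits moved unequally, 2 higher and 1 lower in NAT10 RNAi (1 and 2 after rescaling). UQCR-11 (FBgn0260008, 3L:25120709-25126171, plus strand) stood at 8.98, 8.18 and 8.96 FPKM in control, 7.0, 7.07 and 6.42 in NAT10 RNAi and 4.23, 5.94 and 6.18 with both constructs, with no overlap. Its fall by 0.31 in NAT10 RNAi (limma adjusted p = 0.0257) is lost without control replicate 1 or 3 or NAT10 RNAi replicate 3, while the fall by 0.60 with both constructs (limma adjusted p = 0.00138) passed in each alternative run. Between the RNAi genotypes UQCR-11 was called lower with both constructs (log2 change -0.29). That call is lost without replicate 1 with both constructs (-0.15, limma adjusted p = 0.0669) and without NAT10 RNAi replicate 1 or 2. It is also lost in a fit of the 2 compared genotypes, after rescaling, and by edgeR and DESeq2. UQCR-6.4, at 1.69 ± 0.147, 1.93 ± 0.518 and 2.95 ± 0.33 FPKM, was higher with both constructs than in control by 0.55 and than in NAT10 RNAi by 0.45 (limma adjusted p = 0.00563 and 0.0104), and shares 227 bases of exon with POSH on the opposite strand.

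In complex IV, which passes electrons to oxygen, the summed levels of the RNAi genotypes lay close together, while single genes differed. COX6B alone held 526 FPKM of the mean sum of 926 in control. The summed level of its genes was 915 to 944 FPKM in control, 1121 to 1166 in NAT10 RNAi, and with both constructs 1164 to 1195, so that the RNAi genotypes overlap. In NAT10 RNAi against control 4 of 7 genes rose and 1 fell (3 and 2 after rescaling). Between the RNAi genotypes 1 was higher and 2 lower with a median of -0.04, and after rescaling 4 were higher and none lower with a median of 0.15, so the direction depends on the scale. COX6B (FBgn0031066, X:19740537-19744335, minus strand) stood at 510, 521 and 549 FPKM in control, 717, 703 and 678 in NAT10 RNAi and 730, 717 and 737 with both constructs, above control in both (log2 changes of 0.41 and 0.47, limma adjusted p = 4.27e-06 and 6.83e-06). COX4 had 54.9 ± 1.31, 76.6 ± 2.77 and 74.6 ± 2.04 FPKM, with changes of 0.47 and 0.44 (limma adjusted p = 1.39e-06 and 1.1e-05). COX5A rose from 98.1 ± 4.03 to 145 ± 5.84 FPKM and stood at 120 ± 9.47 with both constructs, lower than in NAT10 RNAi by 0.27 as deposited (limma adjusted p = 0.00229) and not called after rescaling. COX7C (FBgn0040773, 2R:10048353-10050066, plus strand) went the other way: it stood at 119 in each control library, at 94.2, 96.3 and 91.7 in NAT10 RNAi, and at 127, 120 and 121 with both constructs. It fell by 0.34 ± 0.03 in NAT10 RNAi (limma adjusted p = 8.3e-06) and was higher by 0.38 with both constructs than in NAT10 RNAi (adjusted p = 4.64e-06), in every alternative run. COX7C shares 134 bases of exon with oys on the opposite strand, and COX6B 74 with CG18809 on the same strand.

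**Figure D3:**
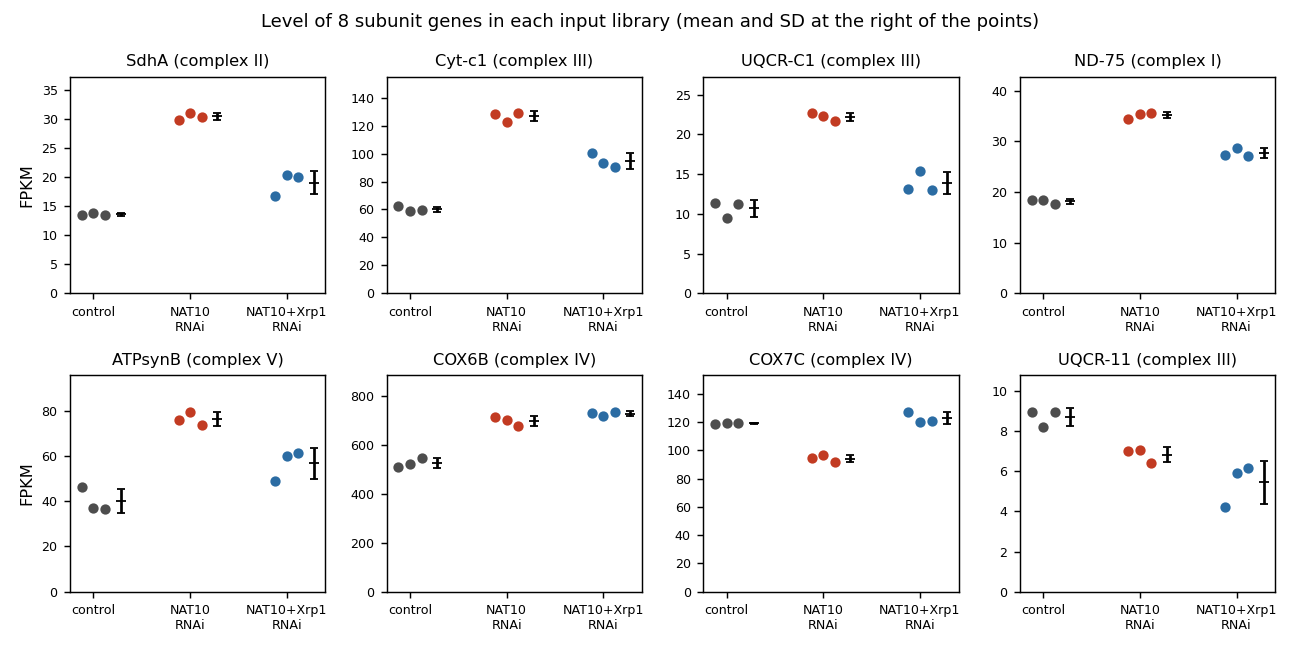
FPKM of 8 subunit genes in each input library by genotype, with the mean and SD beside the points. SdhA, Cyt-c1, UQCR-C1, ND-75 and ATPsynB are highest in NAT10 RNAi, COX6B is high in both RNAi genotypes, COX7C is lowest in NAT10 RNAi and UQCR-11 is highest in control.

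In complex V 8 of 11 genes rose in NAT10 RNAi and none fell (8 and 1 after rescaling), and the sum was 681 to 692 FPKM in control, 942 to 951 in NAT10 RNAi, and with both constructs 836 to 860. ATPsynB (FBgn0019644, 3L:9729999-9731224, plus strand), of the stalk that holds the enzyme's head still, stood at 46.1, 37.0 and 36.8 FPKM in control, 75.7, 79.6 and 73.6 in NAT10 RNAi and 49.0, 59.9 and 61.4 with both constructs. Its log2 changes against control were 0.92 ± 0.10 and 0.50 ± 0.10 (limma adjusted p = 1.25e-05 and 0.00254). ATPsyngamma, the turning shaft, rose from 13.4 ± 0.185 to 23.7 ± 0.217 FPKM, and ATPsynbeta, the catalytic subunit, from 25.1 ± 0.461 to 38.5, 38.1 and 36.6 (log2 changes of 0.78 and 0.57, limma adjusted p = 9.52e-06 and 1.57e-05). ATPsynbeta was at 26.7 ± 2.68 with both constructs, not called against control (limma adjusted p = 0.334), but called without replicate 1 of that genotype, at 0.16. ATPsynE, of the membrane part, stood high in both RNAi genotypes: at 122 ± 5.73, 169 ± 3.26 and 180 ± 14.9 FPKM it was higher than control in both (0.47 and 0.56, limma adjusted p = 3.42e-05 and 3.64e-05). ATPsynO, at 5.03 ± 0.102, 9.12 ± 0.505 and 5.90 ± 1.21 FPKM, rose by 0.75 in NAT10 RNAi and was lower by 0.57 with both constructs than there (limma adjusted p = 0.000117 and 0.000995). Its change with both constructs against control, 0.18, passed the test without replicate 1 of that genotype, at 0.31. ATPsyndelta, at 4.67 ± 0.252, 4.58 ± 0.17 and 4.30 ± 0.206, was not called in any comparison as deposited, and fell by 0.19 in NAT10 RNAi after rescaling.

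Most duplicate copies were also higher in NAT10 RNAi. Of 16, 12 rose and none fell in NAT10 RNAi (10 and 1 after rescaling), where 47.3% and 18.9% of all tested genes did (31.9% and 31.5%). With both constructs 4 were higher and 2 lower than in control, where 21.5% and 19.2% of all tested genes were. Against NAT10 RNAi, 10 were lower and 1 higher with both constructs (8 and 2 after rescaling), where 46.1% and 15.2% of all tested genes were (27.6% and 28.2%). Of 18 testis markers tested, 13 were higher and none lower in NAT10 RNAi than in control, on both scales. With both constructs 2 were higher and 6 lower than in control (3 and 3 without replicate 1), and 1 was higher and 15 lower than in NAT10 RNAi. Their sum over 20 genes was 453 to 461 FPKM in control, 681 to 697 in NAT10 RNAi, and with both constructs 447 to 474; their part in these changes was not tested. UQCR-11L stood at 1.73, 1.64 and 1.96 FPKM in control, 3.83, 3.53 and 4.25 in NAT10 RNAi and 1.02, 1.73 and 1.24 with both constructs, while its parent UQCR-11 fell. It was thus 20.4% of its parent's level in control, 57.0% in NAT10 RNAi and 24.4% with both constructs. COX4L stood at 13.9, 15.1 and 13.1 FPKM in control, 18.5, 21.2 and 19.2 in NAT10 RNAi and 11.5 ± 0.633 with both constructs, where it was lower than in control (limma adjusted p = 0.0109). COX5BL rose from 6.72 ± 0.231 to 13.4 ± 0.438 FPKM, but all 647 of its exon bases lie in an exon of Trmt6 on the opposite strand. ATPsynbetaL stood at 16.7 ± 0.255 FPKM in control, 16.9, 16.7 and 18.1 in NAT10 RNAi and 21.9 ± 0.665 with both constructs. It was higher with both constructs than in control by 0.37 and than in NAT10 RNAi by 0.33 (limma adjusted p = 7.69e-05 and 7.51e-05). In NAT10 RNAi it changed by 0.04, and by -0.15 after rescaling. ATPsynCF6L stood above its parent ATPsynCF6 in all 3 genotypes, at 127% of it in control and 149% in NAT10 RNAi.

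Other genes of the pathway, taken from lists written with earlier results known, were read by their counts beside the same background. The 9 further nuclear genes were blw, sun, levy, cype, both cytochrome c genes and 3 more duplicate copies, SdhAL, SdhBL and Cyt-c1L. All 9 rose in NAT10 RNAi (8 after rescaling), 2 rose with both constructs, and 8 were lower with both constructs than in NAT10 RNAi. Of the 13 genes of the mitochondrial genome 5 rose and 2 fell in NAT10 RNAi (none rose and 7 fell after rescaling), and 7 rose and 2 fell with both constructs. With both constructs 7 were higher and 3 lower than in NAT10 RNAi (10 and none after rescaling). Their summed level was 7457 to 7579 FPKM in control, 7744 to 7799 in NAT10 RNAi, and with both constructs 8340 to 9264. ND3 was at 13.7 FPKM in control, 15.2 in NAT10 RNAi and 29.8 with both constructs. Libraries were made from polyadenylated RNA, so these levels refer to that fraction.

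Of 18 citrate cycle genes 15 rose and 1 fell in NAT10 RNAi (14 and 2 after rescaling) and 10 rose and 1 fell with both constructs. The largest was kdn, the citrate synthase, at 148, 419 and 267 FPKM in the 3 genotypes (log2 changes of 1.49 and 0.85). Fum1, which makes malate, rose by 1.18, and Nc73EF, of the oxoglutarate dehydrogenase, by 0.96. Of 6 genes for ATP and phosphate exchange 4 rose and none fell (4 and 1 after rescaling), with Argk, arginine kinase, going from 102 to 289 FPKM. Of 12 assembly factors 9 rose and none fell, and 6 rose and 2 fell after rescaling. Of 8 chaperones and proteases 6 rose and 1 fell (6 and 2 after rescaling). The 12 genes for copying and reading mitochondrial DNA and its regulators had 5 higher and none lower (4 and 2 after rescaling), with a median of 0.16, where the median of all genes was 0.17. Of these mtRNApol (0.75) and tam (0.61), the polymerases, rose, while srl, TFAM, ewg and ERR, at 0.12, -0.07, 0.06 and 0.11, were not called.

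**Figure D4:**
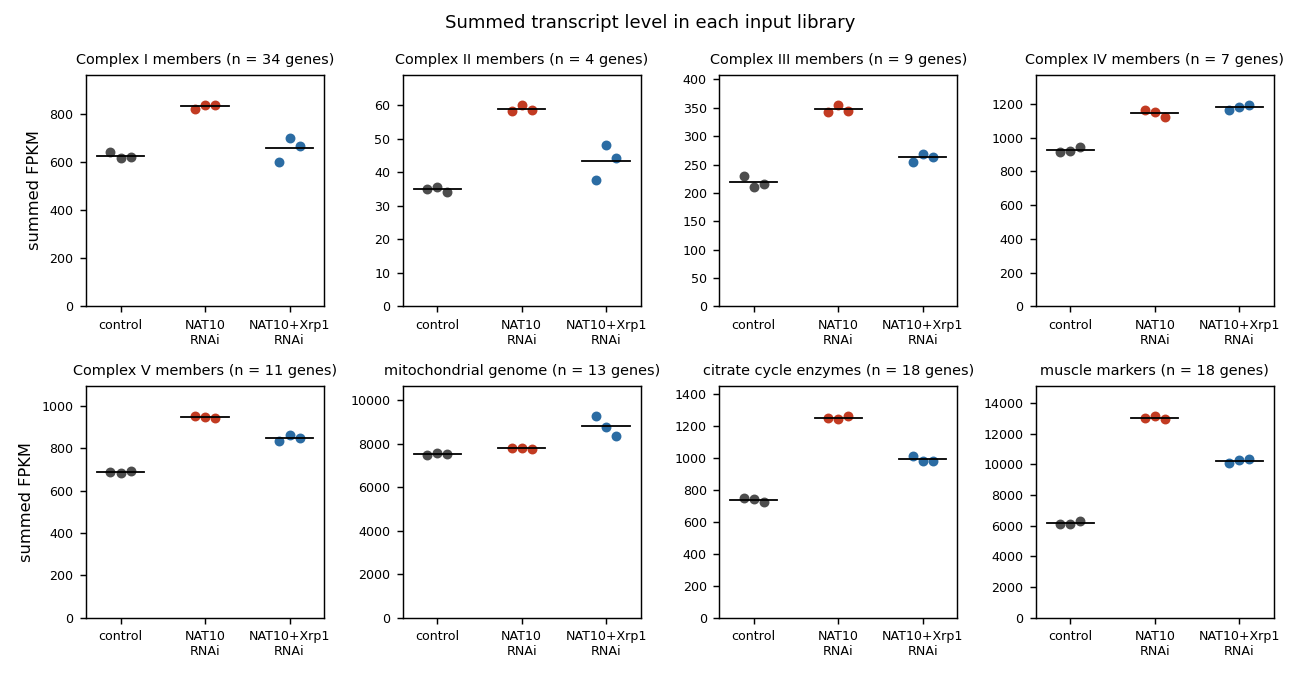
Summed FPKM of each list in each input library (points) with the mean of 3 libraries (lines), by genotype; every axis starts at 0. The sums of complexes I, II, III and V and the citrate cycle are highest in NAT10 RNAi. That of complex IV is similar in the RNAi genotypes, and that of the mitochondrial genome is highest with both constructs. Abundant genes weigh most in such sums, as COX6B (526 FPKM in control) in complex IV and ATPsynC (336) in complex V.

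Muscle, which holds many mitochondria, changed in the same libraries. Of 18 muscle genes 17 rose and 1 (TpnC73F) fell in NAT10 RNAi (15 and 1 after rescaling), 17 rose and none fell with both constructs, and 13 were lower and 2 higher with both constructs than in NAT10 RNAi. Their sum was 6088 to 6315 FPKM in control, 12927 to 13134 in NAT10 RNAi, and with both constructs 10069 to 10345, and no muscle gene of the list was at 0 in all libraries. Its defining gene Mhc, myosin heavy chain, stood at 116, 474 and 404 FPKM. The part of muscle in the subunit changes was not tested. Blood cell genes moved as well, 8 of 8 higher in NAT10 RNAi and 8 of 8 lower with both constructs than there, on both scales. Of 12 midgut genes 7 rose and 1 fell in NAT10 RNAi (7 and 3 after rescaling), and 6 were lower and 2 higher with both constructs than there. Over all tested genes 47.3% were higher and 18.9% lower in NAT10 RNAi than in control (31.9% and 31.5% after rescaling). With both constructs 46.1% were lower and 15.2% higher than in NAT10 RNAi, and the midgut counts of that comparison lie near these shares. Of 8 neuron genes 6 rose and 1 fell (5 and 2 after rescaling), and 6 were lower and none higher between the RNAi genotypes. Of 8 fat body genes 3 rose and 5 fell in NAT10 RNAi, and of 9 imaginal disc genes 1 rose and 4 fell (1 and 7 after rescaling). The part of these was not tested either.

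Some properties that the name rule did not use were examined over the 65 somatic genes. The log2 change in NAT10 RNAi had a Spearman correlation of 0.35 with exon length, against -0.13 over the 11557 tested genes, and of 0.05 with the control level, against -0.22; the genes share libraries, so this is a description. Members lie on all the large chromosomes, 13 somatic genes on each of 2L, 3L and 3R, 12 on each of X and 2R, and 2 on the 4th chromosome. Of the 65, 35 share exon bases with another gene, among them UQCR-14 with all 523 bases in an exon of CG32576 on the opposite strand and ND-MNLL with all 720 in CG45089 on the same strand. Among the 30 that share none, 19 rose and 1 fell in NAT10 RNAi, with a median of 0.40.

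The ac4C capture gave peaks, stretches where the captured RNA exceeds the input, in 1 list per genotype; whether replicates were pooled for it is not given in the sources used here. A peak was given to a gene where at least 50% of its length lay in exons of the same strand, and a position that a list repeats was counted once. In the control list 51 of 65 somatic subunits had a peak, where 80.7% of tested genes did. In the NAT10 RNAi list 48 had a peak (79.1% of tested genes), and in the list of both constructs 51 (78.7%). These shares are close to the background. The authors' fold enrichment over input had a median of 2.35 over 82 somatic peaks in control, 2.05 over 85 in NAT10 RNAi and 1.95 over 87 with both constructs. Over the peaks of all tested genes the medians were 2.17, 2.03 and 2.14, and the differences were not tested. With only peaks of at least 4-fold enrichment, 8, 6 and 6 somatic subunits remained (12.3%, 9.23% and 9.23%), against 29.9%, 22.5% and 27.9% of tested genes; the difference was not tested. By list, 44 somatic subunits had a peak in all 3 and 10 in none, a count not made over all tested genes. Of the 98 peaks on all 81 genes in control 62 lay in coding sequence, 19 in 3' UTR and 8 in 5' UTR, shares close to those of all tested genes.

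The highest enrichments in control were on ATPsyndelta, in its 3' extension, at 29.3 (X:10215365-10216111, plus strand, build BDGP6) and 22.1 (X:10216498-10216707), followed by UQCR-C2 at 20.2 (3L:16585003-16585520, plus strand). In NAT10 RNAi the highest peak of ATPsyndelta was at 8.87 and of UQCR-C2 at 3.71, and with both constructs at 9.83 and 2.49. Both were picked for their control value, and other genes went the other way: the highest peak of ATPsynO was at 2.85, 11.1 and 4.65 in the 3 lists, that of ATPsynbetaL at 4.14, 16.1 and 8.07, and that of ND-51L1 at 2.67, 7.7 and 14.4. Of the 45 somatic subunits with a peak in the control and NAT10 RNAi lists, the highest enrichment was higher in NAT10 RNAi in 17 and lower in 28. That count was not made over all tested genes, whose peaks had a median enrichment of 2.17 in control and 2.03 in NAT10 RNAi. Each list is a separate call, so these differences are not a test. ATPsyndelta shares 1358 of its exon bases with CG2962 on the opposite strand.

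The authors' deposited table of differential peaks for NAT10 RNAi held 5 peaks on 5 of the 81 genes, all lower, in a table where 1016 of 1336 entries were lower and 9.06% of tested genes had a listed peak. For both constructs it held 5 peaks on 4 genes (8.76% of tested genes), 3 lower and 2 higher. The peak of ND-18, an accessory subunit of complex I known in humans as NDUFS4, was listed in both (X:19492449-19492688, plus strand, coding sequence). In the authors' deposited table it changed by -2.08 on the log2 scale in NAT10 RNAi (FDR = 0.000238) and by -2.02 with both constructs (FDR = 0.000376). The captured libraries held 51, 47 and 55 reads in it in control, 51, 70 and 64 in NAT10 RNAi and 64, 43 and 62 with both constructs. The input libraries held 7, 4 and 5 in control, 26, 39 and 30 in NAT10 RNAi and 14, 26 and 35 with both constructs. The captured reads thus overlap between genotypes, and the input reads are higher in both RNAi genotypes without overlap. These read counts were not scaled by library size here. ND-18 as a whole stood at 9.85, 8.73 and 9.25 FPKM in control, 13.9 to 15.5 in NAT10 RNAi and 9.98, 16.1 and 13.0 with both constructs; its call with both constructs (limma adjusted p = 0.0229) is lost without control replicate 2 or 3 or replicate 2 or 3 of that genotype.

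For the longer 3' UTR peak of ATPsyndelta the captured reads were 113, 78 and 93 in control, 43, 55 and 44 in NAT10 RNAi and 68, 68 and 52 with both constructs, lower in both without overlap. Its input held 5, 4 and 6 reads in control, 5, 14 and 12 in NAT10 RNAi and 11, 10 and 7 with both constructs. As for ND-18, these read counts were not scaled by library size here. The authors' deposited table gives -1.79 (FDR = 0.0736) and -1.54 (FDR = 0.213), so neither passes an FDR of 0.05. The other listed peaks on these genes also had an FDR above 0.05 in the authors' deposited table. For NAT10 RNAi they lay in the coding sequence of SdhA (-1.49 on the log2 scale), ND-20 (-1.37) and ATPsynbetaL (-1.90). For both constructs they lay in the 3' UTR of SdhA (1.10), Cyt-c1 (1.13) and ATPsyndelta (-1.92). Between the RNAi genotypes the ND-20 transcript was not called. Without replicate 1 of the genotype with both constructs, it was called lower in that genotype than in NAT10 RNAi (-0.26, limma adjusted p = 0.00236). In the authors' deposited tables of differential genes, which list 1261 and 346 genes, none of the 81 genes is listed. Those tables hold only genes whose log2 change is 1.0 or more in size and whose FDR is at most 0.00807 and 0.00939, so a missing gene may still have changed. SdhA and Cyt-c1 are not listed for NAT10 RNAi, although their log2 changes here were 1.11 and 1.06 as deposited. After rescaling they were 0.91 and 0.86. The reason for this difference was not tested.

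**Figure D5:**
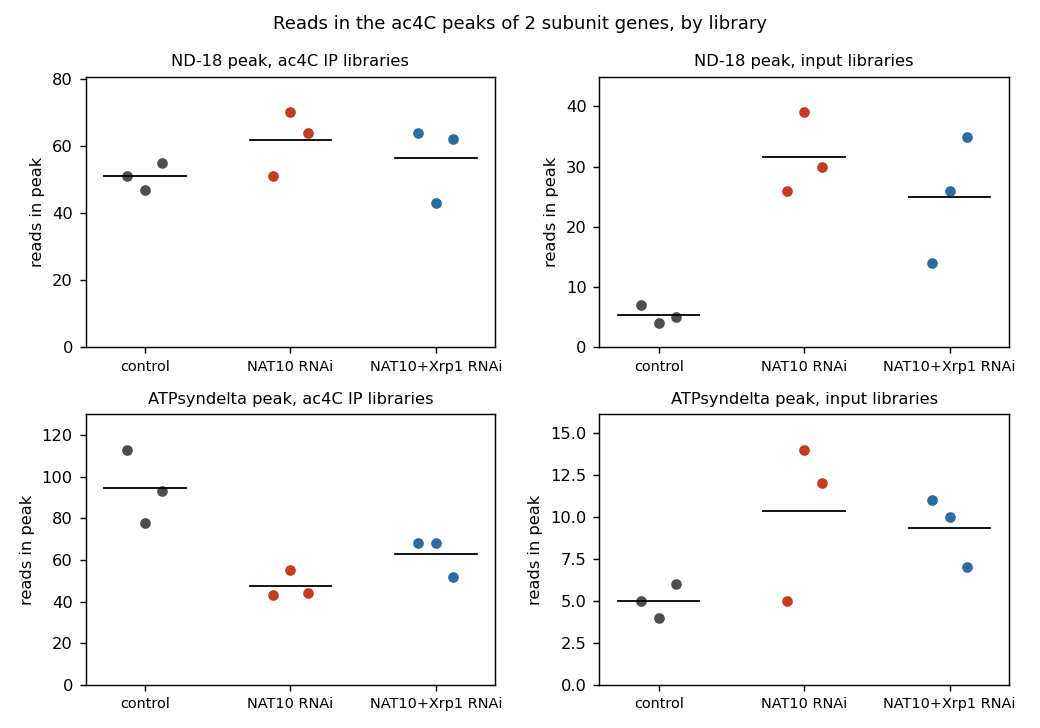
Reads in the ac4C peaks of ND-18 (top) and ATPsyndelta (bottom) in captured (left) and input (right) libraries by genotype. Points are libraries, lines are means, and reads are not scaled by library size. For ND-18 the input rises from 4 to 7 reads in control to 26 to 39 in NAT10 RNAi while captured reads overlap; for ATPsyndelta captured reads drop from 78 to 113 in control to 43 to 55.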

How the data were processed

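Per the labels' protocols, whole larvae gave polyadenylated RNA in pieces of about 100 nt, of which 10% was kept as input and the rest captured with an ac4C antibody. Per the submitters' processing notes, the build was BDGP6 and the tools included STAR 2.7.6a, Subread 1.5.1 with featureCounts, and fastp 0.23.1; the strand setting is not given in the sources used here. The deposited gene table holds FPKM per input library, per the file headers. The deposited peak lists hold the authors' fold enrichment, a ratio, with p-values and FDR; 305, 289 and 289 repeated positions in the 3 lists were dropped. Tables of differential peaks, as deposited, give counts of reads in each library and the authors' log2 change, per the file headers, and those of differential genes hold a log2 change; 12 columns of library values there were not used.

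Levels were tested with limma 3.58.1 (trend, robust) on log2(FPKM + 1), for 11557 genes with FPKM of at least 1 in at least 3 libraries, with all 9 input libraries in 1 fit and Benjamini-Hochberg adjustment over them; the scale understates changes of low genes. FPKM times length gave whole reads (100% of values within 0.1), on which edgeR 4.0.16 and DESeq2 1.42.0 were run as alternatives. The fit was tested on simulated data. Members and lists were chosen with earlier results of these data known. Named members are, in each comparison and complex, the called somatic gene of largest log2 change in each direction and the runner-up in the commoner direction, the 4 genes of complex II, the highest and lowest of each complex, those called against most of their complex, the duplicates, and those in a differential peak table; from other lists up to 3 called genes. Regulators not called, ND3, Mhc, ng1, ng2, the genes followed across peak lists and genes named for shared exons were chosen after their values were seen. Not every member under the naming rule is described. The duplicates described were a further choice, and COX8, COX5B and several duplicates are left out. P-values reflect the spread between replicates.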

Additional observations from a re-analysis of the deposited data

How the results depend on the processing

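The count of somatic members higher in NAT10 RNAi than in control, 47, stayed within 1.5 times under all alternatives run (33 by DESeq2 to 54). Of 162 alternatives for counts and medians 134 stayed near the reported value. For NAT10 RNAi against control, the lower count of 2 became 7 by DESeq2, edgeR and rescaling, and the median log2 fold change of 0.41 became 0.25, 0.26 and 0.23, and 0.34 with a pseudocount of 5. For both constructs against NAT10 RNAi, the higher count of 2 became 7 by DESeq2, edgeR and rescaling, the lower count of 37 became 21 by DESeq2 and 22 by rescaling, and the median of -0.28 became -0.10 by DESeq2, -0.12 by edgeR, -0.11 by rescaling and -0.22 with a pseudocount of 5. For both constructs against control, the median of 0.13 became 0.079 over members that share no exon base, an alternative chosen after seeing the data. Peaks of at least 4-fold enrichment left 8, 6 and 6 members. Leaving out 1 library gave 43 to 54 higher, 1 to 2 lower and medians of 0.40 to 0.44 for NAT10 RNAi, 19 to 33, 2 to 4 and 0.083 to 0.22 for both constructs against control, and 2 to 3, 33 to 40 and -0.34 to -0.21 between the RNAi genotypes. Of 2346 alternatives for 46 named members 2227 kept their status, called or not called, 71 lost a call and 39 gained one. In 9 the sign changed, with a call in at least 1 of the 2 runs compared. ATPsynbetaL in NAT10 RNAi went from 0.04 to -0.16, -0.14 and -0.15 (DESeq2, edgeR, rescaling). Between the RNAi genotypes, in the same order, ATPsynC went from -0.13 to 0.059, 0.043 and 0.061, where it was not called. COX4 there went from -0.04 to 0.15, 0.14 and 0.15. These methods rescale libraries by construction. Replicate numbers share only a number, with correlations of -0.068 to 0.080; with the replicate block 47 were higher and 2 lower in NAT10 RNAi, 26 and 3 with both constructs, and 3 and 39 between the RNAi genotypes.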
